A study of Mus musculus with 47 samples.

Results

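The myosin binding protein C family was followed through single fibres of the extensor digitorum longus (EDL), a hindlimb muscle of mainly fast-twitch fibres that lifts the toes. The family was taken as the 5 genes whose symbols in the count tables are Mybpc1, Mybpc2, Mybpc3, Mybph and Mybphl, out of 24421 genes listed, by name and not by a threshold on their values. Each library was the RNA of 1 fibre, released from FVB/N muscle with collagenase. Mice were 2 to 3 months old, and the study describes them as male. The 27 WT fibres came from 3 mice and the 20 C2KO fibres from 2 C2-/- mice, in which exons 2 to 22 of Mybpc2 were replaced by a Neo cassette, per the study's methods. No label ties a fibre to a mouse. Counts were therefore summed over fibres, by sequencing run into 3 WT pools (WT pool 1 with 10 fibres, WT pool 2 with 10, and WT pool 3, run 0092, with 7) and by the number that begins each fibre name, its prefix, into 2 C2KO pools (740 and 2445, 10 fibres each).

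MyBP-C, the protein these genes encode, sits on the thick filament of the sarcomere. It binds myosin and titin through its C-terminal end and reaches the thin filament and the myosin heads with its N-terminal end, where it limits and tunes cross-bridge formation. Mybpc1 encodes the slow skeletal isoform, which fast fibres also make, Mybpc2 the fast skeletal isoform and Mybpc3 the cardiac isoform. Mybph and Mybphl encode the shorter MyBP-H proteins, which keep the C-terminal, filament-binding domains and lack the N-terminal ones. Mybphl is known from the heart.

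The 5 genes lie on 5 chromosomes of mm10. The authors' annotation places Mybpc1 on chromosome 10 (88518279 to 88605152, minus strand, 30 exons, 3981 exonic bases) and Mybpc2 on chromosome 7 (44501699 to 44524669, minus strand, 28 exons, 3624 bases). It places Mybpc3 on chromosome 2 (91118144 to 91136516, plus strand, 4150 bases), Mybph on chromosome 1 (134193448 to 134201232, plus strand, 1829 bases) and Mybphl on chromosome 3 (108364911 to 108380057, plus strand, 1276 bases). No word of 50 bases was shared between the annotated transcripts of different members (GENCODE vM21), so the paralogs can be counted apart. Below, 3 promoters are printed because these are the members whose RNA was measurable in the fibres. Each is the 250 bases before the start site (RefSeq, GRCm38.p6), which is also the first exon base of the count tables for all 5 genes. Capitals mark E-boxes, the CANNTG element that myogenic regulatory factors bind. The windows are chr10:88605153-88605402 (minus) for Mybpc1, chr7:44524670-44524919 (minus) for Mybpc2 and chr1:134193198-134193447 (plus) for Mybph.
Mybpc1: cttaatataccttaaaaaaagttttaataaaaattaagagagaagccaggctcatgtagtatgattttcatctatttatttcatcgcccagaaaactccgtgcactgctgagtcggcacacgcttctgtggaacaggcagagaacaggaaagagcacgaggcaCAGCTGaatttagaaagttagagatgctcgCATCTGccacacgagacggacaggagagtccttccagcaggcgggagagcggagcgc
Mybpc2: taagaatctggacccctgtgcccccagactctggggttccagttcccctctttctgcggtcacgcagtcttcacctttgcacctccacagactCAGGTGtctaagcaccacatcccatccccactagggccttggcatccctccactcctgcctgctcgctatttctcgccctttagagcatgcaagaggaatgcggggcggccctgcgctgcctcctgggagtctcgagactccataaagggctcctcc
Mybph: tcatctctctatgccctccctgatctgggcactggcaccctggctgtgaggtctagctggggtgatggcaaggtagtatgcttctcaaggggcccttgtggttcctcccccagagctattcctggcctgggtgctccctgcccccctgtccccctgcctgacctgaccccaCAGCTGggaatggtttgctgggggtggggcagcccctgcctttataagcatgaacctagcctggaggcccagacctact
Mybpc1 holds 2 E-boxes, which begin 87 and 57 bases before the start, Mybpc2 holds 1 at 157 bases and Mybph 1 at 79 bases. The Mybpc3 window holds 3 E-boxes and 1 MEF2-like site, and the Mybphl window holds no E-box. CANNTG is its own reverse complement, so both strands are read at once, and it occurs in 66.2% of 32851 windows of this length, so its presence does not set the family apart. TATAAA, read on both strands, is in the Mybph window alone among these genes and in 12.4% of all windows. The MEF2-like site is in 2.92% of windows and a CArG box, found in none of the 5, in 1.47%.

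Libraries held 7769593 to 14606631 gene counts in WT and 7648762 to 10517887 in C2KO. The summed level of 8 fast-fibre markers was 187264 to 250565 counts per 1000000 gene counts (CPM) in WT fibres and 196796 to 254109 CPM in C2KO fibres, against 9.69 to 31.4 CPM and 6.90 to 38.2 CPM for 8 slow-fibre markers, of which Myl3 was at 0 in all WT fibres and Myl2 in all C2KO fibres. All 5 heart markers together reached at most 4.79 CPM in a WT fibre. Summed markers of fibroblasts reached 340 CPM in a WT fibre and 4898 CPM in a C2KO fibre. One WT fibre of pool 2 stood apart, with 28821 CPM of Myh4, the type IIb myosin heavy chain, where each other WT fibre had at least 49067 CPM. Run was nearly confounded with genotype, since run 0092 alone held both (7 WT fibres and 1 C2KO fibre of prefix 740). Of the other C2KO fibres, 3 of prefix 740 were in one run (run A) and 6 of 740 with all 10 of 2445 in another (run B). Differences between genotypes were tested on the pools with edgeR's quasi-likelihood test and Benjamini-Hochberg adjustment over 12863 genes, with calls made where the adjusted p was under 0.05 and the fold exceeded 1.5. These p-values rest on the spread from pool to pool alone, which may be technical. The pools are also unlike units. By sex-linked transcripts, described below, every WT pool mixed classes of fibre and each C2KO pool held a single class. If the class marks the sex of the mouse, 1 of the 3 WT mice supplied all fibres of 1 class, in all 3 WT pools. The WT pools then share that mouse, and their spread does not measure the spread between mice.

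In WT fibres the family was dominated by Mybpc2, followed by Mybpc1, and Mybph was a minor and variable member. Per kb of exon, which allows genes to be compared, Mybpc2 averaged 2655 CPM per kb ± 156 (SD, n = 3 pools), Mybpc1 942 CPM per kb ± 18.1 and Mybph 76.8 CPM per kb ± 23.4. On this scale Mybpc2 ranked 23 and Mybpc1 38 among 16396 genes with a count in WT fibres, while Mybph ranked 660. Mybpc2 thus lay above Mybpc1 and Mybpc1 above Mybph by more than the spread of the pools. Mybpc3 and Mybphl were at the edge of detection.

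Mybpc2 was the member removed by the deletion, and every fibre followed its label. In WT fibres it ran from 6563 CPM through a median of 9479 CPM to 11556 CPM, and in C2KO fibres from 2.61 through 26.1 to 47.6 CPM, so that the genotypes did not overlap in any fibre. Of all genes tested, 3 (0.0233%) were lower in every C2KO fibre than in every WT fibre. The pools read 10050, 9843 and 8881 CPM in WT and 26.3 (740) and 24.9 (2445) CPM in C2KO after TMM scaling. Mybpc2 had a log2 fold change of -8.55 with an SE of 0.14 (adjusted p = 6.39e-06, edgeR) and was the 1 family member called, where 6 of all genes tested (0.0466%) were called. Fitted over single fibres with run as a covariate, its log2 fold change was -11.69 (SE 1.003). Since the deletion fixes this outcome, it checks the labels only.

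The residual Mybpc2 counts were above 0 in all 20 C2KO fibres and varied among them. They came to 4908 counts in all, between 20 and 469 per fibre, and their mean was 0.261% of the WT mean (0.0270% to 0.491% in single fibres). Their coefficient of variation (CV) over fibres was 48.8%, of which counting error alone would give 6.42%. The residual level did not separate the prefixes, with medians of 27.4 CPM in 740 and 22.7 CPM in 2445 and ranges that overlapped. The lowest fibre, at 2.61 CPM, was the single C2KO fibre sequenced in run 0092, whereas the 3 fibres of run A had 16.4, 40.5 and 42.7 CPM and the 16 of run B had 5.05 to 47.6 CPM. The part of the run in these counts was not tested. Of the 3624 exonic bases counted as Mybpc2, 1063 (29.3%) lie outside exons 2 to 22, namely exon 1 with 99 bases and the last 6 exons with 964 bases. A count gives no position within the gene, so counts from the kept exons and from the replaced exons cannot be told apart.

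**Figure D1:**
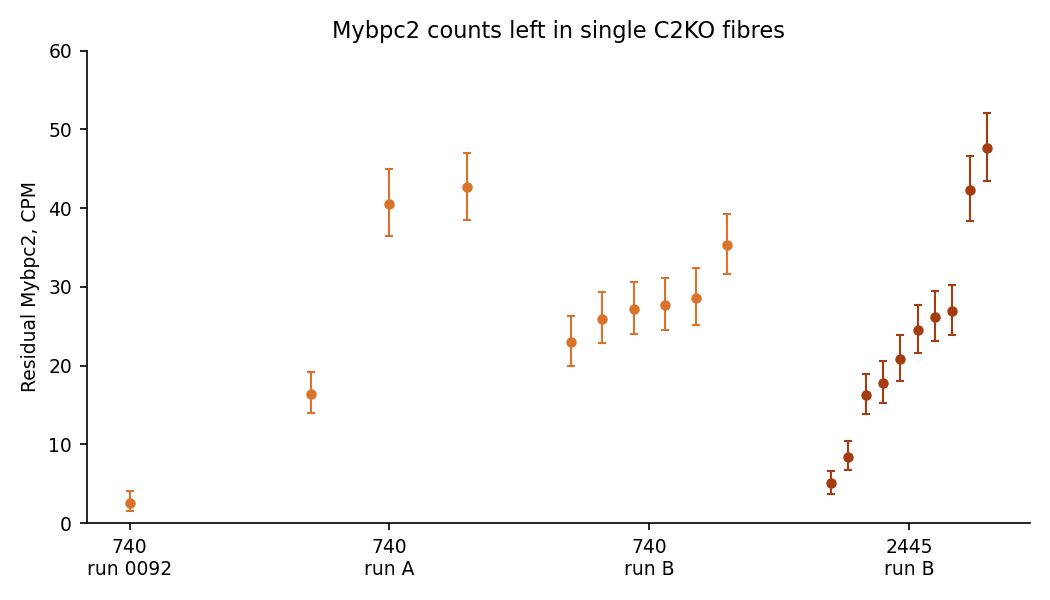
Residual Mybpc2 in each of the 20 C2KO fibres, in CPM on a linear axis, grouped by fibre-name prefix and sequencing run and ordered by level within each group. Points are fibres and bars are exact Poisson 95% intervals of the counts; the fibre of run 0092 is lowest at 2.61 CPM and the highest fibre has 47.6 CPM.

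Mybpc1, the paralog that remained at a high level, was slightly lower in C2KO and did not pass the test. Over single fibres it ran from 2341 through a median of 3705 to 4774 CPM in WT and from 2125 through 3050 to 4465 CPM in C2KO. The 2 ranges overlapped widely. As a description of fibres that are not replicates, 17 of 20 C2KO fibres lay below the WT median and 1 of 27 WT fibres lay below the C2KO median. How many other genes show such a split was not counted. The pools read 3807, 3642 and 3749 CPM in WT and 3188 (740) and 3051 (2445) CPM in C2KO, so both C2KO pools were below every WT pool, a pattern shown by 14.5% of all genes tested. The log2 fold change was -0.26 with an SE of 0.080, or 0.836 of the WT level, with an edgeR adjusted p of 0.420. Its unadjusted p was under 0.05, as it was for 4.13% of genes tested in the lower direction. The SD between pools was 83.7 CPM around a mean of 3732 CPM in WT and 97.0 CPM around 3119 CPM in C2KO. DESeq2 on the same pools gave an adjusted p of 0.0323 at a fold under the threshold. In run 0092, with 1 C2KO fibre at 3276 CPM beside 7 WT fibres at 3317 to 4774 CPM, the C2KO fibre was lower than every WT fibre. With sequencing run as a covariate over the 47 fibres the log2 fold change was -0.16, which also rests on that C2KO fibre.

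**Figure D2:**
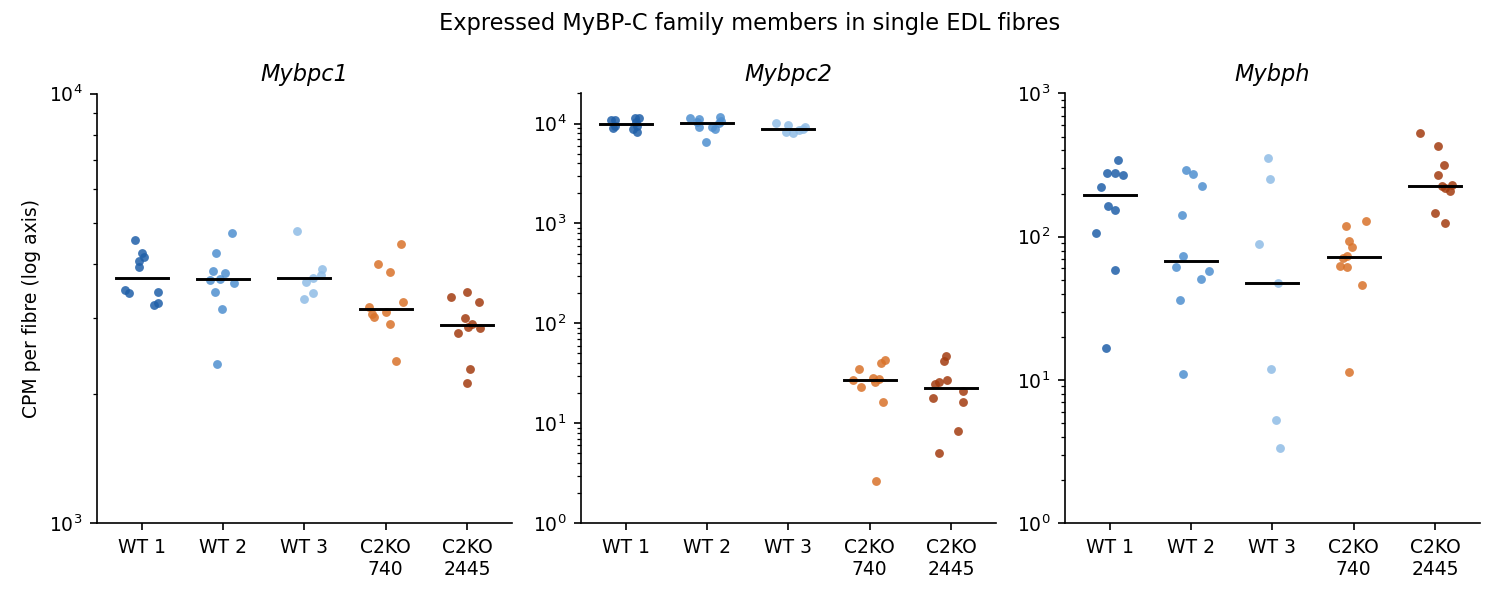
CPM of the 3 measurable family members in each fibre, on log axes, by WT pool (blue) and C2KO pool (orange and brown); each point is 1 fibre and each bar the pool's median. Mybpc1 overlaps between genotypes, Mybpc2 drops from at least 6563 CPM to at most 47.6 CPM, and Mybph spreads from 3.35 to 527 CPM.

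No other member was higher in C2KO by an amount near that of the lost Mybpc2 RNA. The summed length-scaled level of the 5 genes was 3673 CPM per kb ± 167 in the WT pools (SD, n = 3) and 882 CPM per kb ± 3.68 in the C2KO pools (SD, n = 2), or 24.02% of WT. Without Mybpc2 the sum was 1018 CPM per kb ± 34.0 in WT and 875 CPM per kb ± 3.02 in C2KO, or 85.9% of WT. Neither difference overlapped between pools, and the 2-sided exact permutation test gave p = 0.1 for each, the smallest value that 10 arrangements of 5 pools allow. For the sum with Mybpc2 the deletion fixes the difference, so that p carries no further information. Mybpc1 supplied 27.8% ± 1.501 of the family's counts in WT pools and 93.7% ± 4.67 in C2KO pools. This rise follows from the loss of Mybpc2 counts, as Mybpc1 itself was not higher in C2KO. Mybph supplied 2.06% ± 0.546 of the length-scaled family in WT and 10.8% ± 8.75 in C2KO, and as much as 34.8% in 1 C2KO fibre. This share rests on a family total without Mybpc2 and was 4.64% in 740 and 17.01% in 2445, while the Mybph level itself was 76.8 CPM per kb in WT and 94.3 CPM per kb in C2KO (exact permutation p = 0.8).

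Set against Myh4, the heavy chain that MyBP-C binds in these fibres, Mybpc1 was also lower in C2KO. The length-scaled ratio of Mybpc1 to Myh4 was 8.82% ± 0.433 in the WT pools (SD, n = 3) and 6.73% ± 0.581 in the C2KO pools (SD, n = 2), a difference of -2.09 percentage points (exact permutation p = 0.1, the smallest possible). The ratio does not depend on library size, but both of its terms enter it, and Myh4 itself differed by 0.12 on the log2 scale with an SE of 0.093 (adjusted p = 0.694 in edgeR). For Mybpc1, Mybpc2 and Mybpc3 together the ratio to Myh4 was 33.8% ± 3.15 in WT and 6.79% ± 0.586 in C2KO. The loss of Mybpc2, the largest part of the WT sum, fixes this difference.

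In WT fibres the ratio of the 2 abundant isoforms varied less than either isoform alone, and no other pair of genes was compared. The length-scaled ratio of Mybpc2 to Mybpc1 was 2.84 ± 0.190 (SD, n = 3 pools) and ran from 2.00 to 3.60 over the 27 fibres, with a CV of 10.8%. Each isoform alone had a CV of 13.97% (Mybpc1) or 12.8% (Mybpc2), below the 17.6% median of 6045 genes with at least 10 CPM (percentiles 24.96 and 17.7). Among the 70 genes over 1000 CPM the same CVs were at percentiles 62.9 and 52.9. Their CPM values rose and fell together to a moderate degree, with a Spearman rho of 0.57 over 27 WT fibres and of 0.71, 0.85 and 0.36 within WT pools 1, 2 and 3. The points share libraries, scaling and pools, and the fibre of low Myh4 in pool 2 was also the lowest for both isoforms, at 2341 CPM of Mybpc1 and 6563 CPM of Mybpc2.

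**Figure D3:**
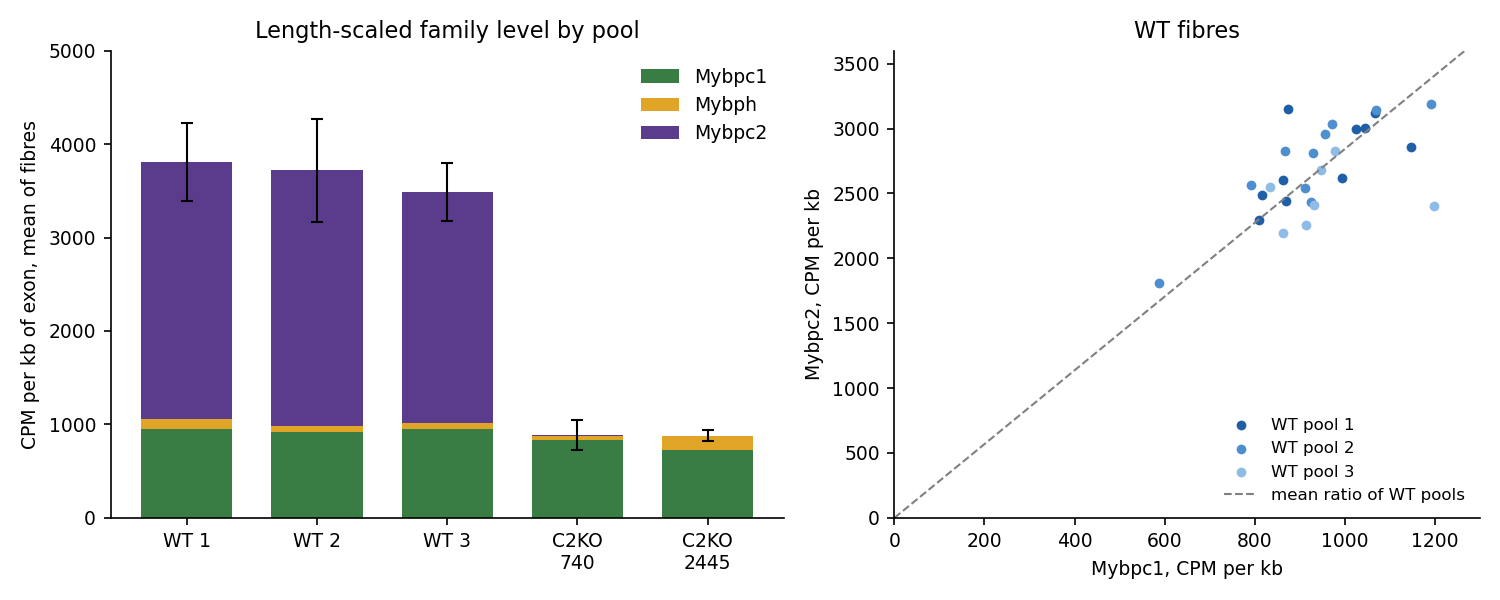
Left, length-scaled level of the family by pool in CPM per kb of exon, as stacked means over fibres of Mybpc1, Mybph and Mybpc2 (Mybpc3 and Mybphl are too low to see), with bars for the SD of the family total over fibres. Right, Mybpc2 against Mybpc1 in the 27 WT fibres on the same scale, with a dashed line at the mean ratio of 2.84; the family total is 3673 CPM per kb in WT and 882 CPM per kb in C2KO.

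Mybph was the member with the widest fibre-to-fibre range, and its pools did not separate the genotypes. It ran from 3.35 through a median of 106 to 357 CPM over WT fibres, a 107-fold range, and from 11.4 through 127 to 527 CPM over C2KO fibres, a 46.3-fold range. Its CV of 80.9% in WT was higher than that of 99.1% of genes with at least 10 CPM, and counting error would give 2.49%. The pools read 192, 120 and 110 CPM in WT and 72.3 (740) and 284 (2445) CPM in C2KO, so that one C2KO pool lay below and the other above all WT pools. Its log2 fold change was 0.34 with an SE of 0.54 (adjusted p = 0.863 in edgeR). Without pool 2445 it was -0.96 (edgeR adjusted p = 0.217), without pool 740 it was 1.02, and with run as a covariate it was -3.24 (SE 1.84, edgeR adjusted p = 0.489), so no direction can be given for the genotype.

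The 2 C2KO prefixes differed in Mybph also within 1 run. In run B the 6 fibres of prefix 740 had 46.0 to 129 CPM with a median of 72.2 CPM, and the 10 fibres of prefix 2445 had 125 to 527 CPM with a median of 227 CPM. The ranges overlapped between 125 and 129 CPM. Summed fibroblast markers also differed, with medians of 31.5 CPM in 740 and 0.651 CPM in 2445 over all their fibres, and their part in the result was not tested. Of the 10 fibres of 740, 1 was at or above the lowest 2445 fibre, as were 7 of 10, 4 of 10 and 2 of 7 fibres in WT pools 1, 2 and 3.

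The spread of Mybph moved with sex-linked transcripts, a split of fibres made after the values were seen and given as a description. With more than 10 counts of the Y-linked genes Ddx3y, Eif2s3y, Kdm5d and Uty or of Xist as the mark, 15 WT fibres had Y-linked counts, 11 had Xist counts and 1 had both, while all 10 fibres of 740 had Y-linked counts and all 10 of 2445 had Xist counts. Mybph in WT had a median of 50.4 CPM (3.35 to 276) in the Y-linked fibres and of 270 CPM (58.2 to 357) in the Xist fibres. In C2KO the medians were 72.2 CPM (11.4 to 129) and 227 CPM (125 to 527). The Xist fibres had the higher median in each WT pool, with 189 against 270 CPM in pool 1, 57.2 against 276 CPM in pool 2 and 8.54 against 254 CPM in pool 3. Mybpc1 and Mybpc2 did not show such a gap, with WT medians of 3685 and 3811 CPM for Mybpc1 and of 9711 and 9436 CPM for Mybpc2 in Y-linked and Xist fibres. In C2KO the class is the same split as the prefix, so the 2 cannot be told apart there. In WT no label ties a fibre to a mouse, so class and mouse cannot be told apart there either. The WT pools may share mice and so are not separate repeats of the gap. Every WT pool mixed the classes. Y-linked and Xist fibres numbered 4 and 5 in WT pool 1, 7 and 3 in pool 2, and 4 and 3 in pool 3. The spread between WT pools thus averages over the classes, whereas that between C2KO pools keeps any difference between them. The effect of this on the tests between genotypes was not tested. The study describes the mice as male, which the Xist counts do not bear out for these fibres, and their source was not tested.

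Over all WT fibres Mybph tracked Actc1, an alpha-actin of the heart and of developing skeletal muscle. Over all C2KO fibres the correlation was low, and lower than within either prefix. The Spearman rho was 0.85 over 27 WT fibres (0.73, 0.95 and 0.93 within WT pools 1, 2 and 3) and 0.28 over 20 C2KO fibres (0.61 in 740 and 0.42 in 2445). Within the WT classes rho was 0.86 over the 15 Y-linked fibres and 0.35 over the 11 Xist fibres. Among Xist fibres WT was thus not above C2KO, where these are the fibres of 2445 (0.42). Actc1 had WT medians of 30.5 and 708 CPM in the Y-linked and the Xist fibres, but 1984 and 1992 CPM in those of C2KO. The 2 C2KO prefixes, each of a single class, thus had near-equal Actc1 medians beside Mybph medians of 72.2 CPM (740) and 227 CPM (2445). Class and prefix cannot be told apart in C2KO. The difference between the genotypes' correlations was not tested.

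**Figure D4:**
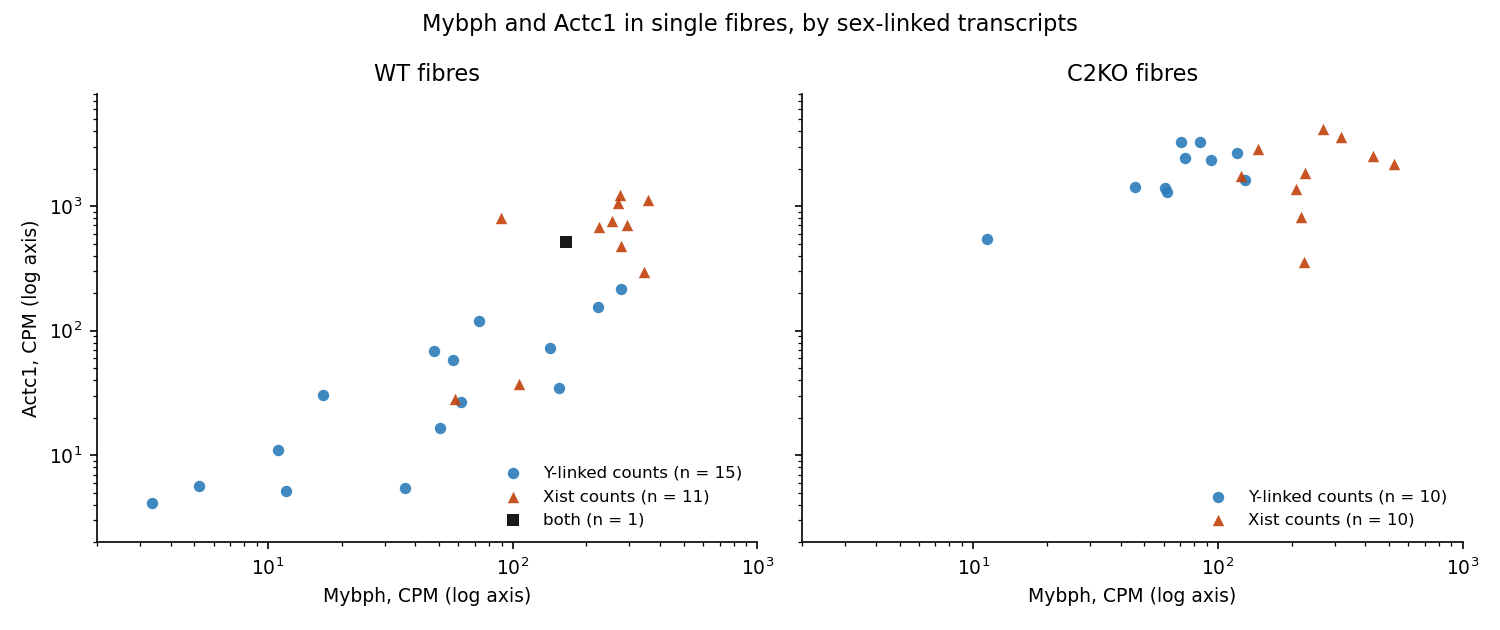
Mybph against Actc1 in single fibres, both in CPM on log axes, for WT (left) and C2KO (right); markers give fibres with Y-linked counts, with Xist counts or with both. In WT the fibres run along a diagonal (rho 0.85), and in C2KO Actc1 is at 359 CPM or more in every fibre while Mybph runs from 11.4 to 527 CPM.

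Part of the Mybph count lies where another gene is annotated. Adora1, which encodes the adenosine A1 receptor, lies on the opposite strand and shares 662 exonic bases with Mybph, 36.2% of its exonic length. Over the 44 fibres with at least 100 Mybph counts the ratio of Adora1 to Mybph counts was 0.317 to 0.565, with a median of 0.445, and rho between the genes was 0.995 over all 47 fibres. The authors counted with strand option 2, and no source used here says whether the kit kept the strand, so reads of the 2 genes in the shared bases cannot be told apart. With the counts of both genes added, neither the direction nor the call of Mybph changed.

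Mybpc3 and Mybphl, the members known from the heart, had few counts in both genotypes. Mybpc3 had 14 counts in 5 of 27 WT fibres and 3 counts in 1 of 20 C2KO fibres, or 0.0443 CPM (95% exact Poisson interval 0.0242 to 0.0744) and 0.0155 CPM (0.00320 to 0.0454) of the summed counts. The C2KO to WT ratio of 0.351 has an interval of 0.0646 to 1.26, which covers counting error only. Mybphl had 26 counts in 7 WT fibres and 12 counts in 6 C2KO fibres, a ratio of 0.755 with an interval of 0.347 to 1.55. Neither gene passed the filter on low counts, and a change was not detectable at this depth.

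Genes were ranked by how closely their CPM followed each member over the 27 WT fibres, among 6045 genes with a mean of at least 10 CPM, as a description of libraries that share runs and depth. For Mybpc2 the highest rho values included those of Myom2 (0.75), an M-band protein of the thick filament, Atp6v0a1 (0.75), a subunit of the vacuolar proton pump, Mpp3 (0.72) and Eml1 (0.71). The lowest were Gng5 (-0.85), a G protein gamma subunit, C1qbp (-0.81) and Tmed10 (-0.81). In C2KO, where the Mybpc2 value is the residual alone, Gng5 still had -0.78, Atp6v0a1 0.68 and Mpp3 0.66, and Myom2 had 0.35. Eml1 had 0.51, C1qbp -0.55 and Tmed10 -0.22. For each gene named here the sign was the same for the residual counts as for the full transcript in WT.

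For Mybpc1 the highest values were lower, led by Tbx15 (0.68), a T-box factor of fast fibres, Mpp3 (0.63), Tef (0.59), a PAR bZIP factor of the clock output, Rbm3 (0.59) and Sun1 (0.59), with Prrc1 (-0.65), Rsf1 (-0.62) and Celf2 (-0.62) at the other end. Few of these held in C2KO, where Tef had 0.49, Tbx15 0.29, Rbm3 0.26 and Sun1 0.02. Mpp3 (-0.15), Prrc1 (0.35), Rsf1 (0.26) and Celf2 (0.14) had the other sign. For Mybph, leaving aside Adora1 (rho 0.996, shared bases), the highest were AW551984 (0.90), Actc1 (0.85), Banp (0.80) and Sytl2 (0.78), and the lowest Mgst3 (-0.89), a microsomal glutathione transferase, Hist1h1c (-0.87) and Apbb2 (-0.84). Over the C2KO fibres AW551984 had 0.83, Mgst3 -0.90 and Apbb2 -0.67, close to WT, whereas Banp had 0.06 and Hist1h1c -0.17. These C2KO values were not computed within the prefixes, which differed in Mybph. A gene that differs between the prefixes can therefore have a strong rho here. The same limit applies to the sex-linked classes in WT.

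The genes that work beside MyBP-C were read from a list. Of 39 genes of thick-filament partners (myosin heavy and light chains, M-band and A-band proteins, thin-filament and other binding partners), 36 were tested and 1 was called, where 0.0466% of all genes tested were. It was Actc1, which was higher in C2KO by 2.72 on the log2 scale with an SE of 0.17 (adjusted p = 0.0160 in edgeR). The study names Actc1 among its most upregulated genes, and the list was chosen with earlier results of these data known. The call of Actc1 is therefore no result about the list. The median log2 fold change of the 36 was -0.02, that of all genes tested -0.00038. Both C2KO pools were above all WT pools for 5 of the 36 and below for 4, where 13.1% and 14.5% of all genes tested were. At an unadjusted p under 0.05 there were 3 higher and 5 lower partners, where 6.2% and 4.13% of all genes tested were. The smallest such p after Actc1 was that of Trim63, the gene of the ubiquitin ligase MuRF1 of the M-band, which had a log2 fold change of 0.90 (SE 0.21, adjusted p = 0.395 in edgeR). Actc1 was not called without WT pool 1, without WT pool 2, without the WT fibre of low Myh4 or with run as a covariate.

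A second list held kinases and phosphatases that act on MyBP-C or in its signalling. Of 28 such genes 27 were tested and 0 were called by edgeR, DESeq2 or limma-voom, which says little about the list where edgeR called 0.0466% of all genes tested, and their median log2 fold change was -0.03. At an unadjusted p under 0.05 there were 3, all lower in C2KO, namely Camk2b (-0.40), Akap13 (-0.41) and Gsk3b (-0.42), where 10.3% of all genes tested passed that threshold, 4.13% as lower and 6.2% as higher. Both C2KO pools were below all WT pools for 8 of the 27 and above for 2, where 14.5% and 13.1% of all genes tested were. Camk2b encodes a subunit of calcium/calmodulin-dependent kinase II, Akap13 a protein kinase A anchor and Gsk3b glycogen synthase kinase 3 beta. The 3 most abundant members were Phka1, a regulatory subunit of phosphorylase kinase, with 996 CPM in WT and 1000 CPM in C2KO, Pkia, the protein kinase A inhibitor alpha, with 578 and 542 CPM, and Ppp1cb, a catalytic subunit of protein phosphatase 1, with 269 and 276 CPM.

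**Figure D5:**
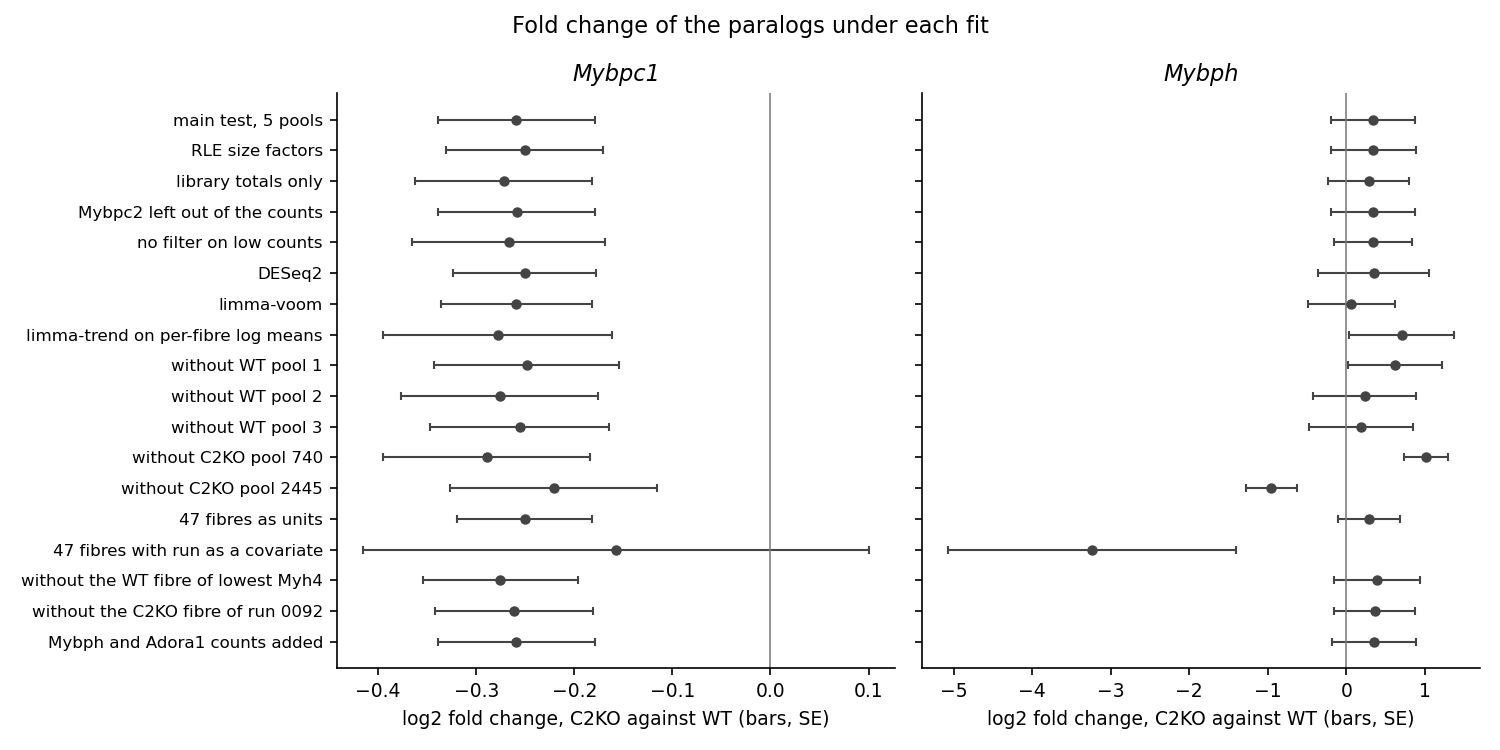
Log2 fold change of Mybpc1 (left) and Mybph (right), C2KO against WT, under the main test and each alternative fit across genes; points are estimates and bars their SE, and the x axes differ. Mybpc1 stays between -0.29 and -0.16, and Mybph runs from -3.24 to 1.02.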

How the data were processed

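RNA was measured in 47 single EDL fibres, 27 WT and 20 C2KO. Raw counts were deposited by the authors, in 1 table for each fibre. Per the file headers, read pairs were counted over exons of mm10 genes with featureCounts 1.5.2 (strand option 2, multi-mapping reads left out). HISAT2 2.0.5, FastQC 0.11.2 and CASAVA 1.4 are named in the submitters' processing notes. The family members and gene lists were chosen with earlier results of these data known.

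Counts were summed into 5 pools and tested with edgeR 4.0.16 in R 4.3.3 (glmQLFit and glmQLFTest, TMM, filterByExpr, Benjamini-Hochberg). The alternatives included DESeq2 1.42.0 and limma 3.58.1. Fibre values are counts over the fibre's total (CPM), and pool values in CPM are TMM-scaled from summed counts. CPM per kb divides by the exonic length in the tables. Pool values in CPM per kb, shares and ratios are means over the pool's fibres, without TMM scaling. Single values per pool were compared with exact permutation tests. Named genes were the 5 members, Myh4, the called members of each list (or the 3 most abundant), and the 5 highest and 3 lowest rho per expressed member, of which 1 gene is not reported here. The kinases at an unadjusted p under 0.05 were named after their values were seen. Of 1081 pairs of fibres the closest differed by a chi-square of 8.71 per degree of freedom, so no pair was merged. The test was checked on simulated counts. Intervals are at a confidence of 0.95 and include counting error alone, as copies made by PCR are not separate molecules.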

Additional observations from a re-analysis of the deposited data

Results flagged for a closer look

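One value stood apart from its group. The highest Mybpc1 fibre of WT pool 3, at 4774 CPM, was separated from the next fibre by a gap of 0.602 of the pool's whole range, above the critical value for 7 fibres in Dixon's test. It was the highest of all 47 fibres for Mybpc1. Chance flags about 1 in 20 groups, and 15 combinations of 3 members and 5 pools were examined.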

How the results depend on the processing

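Mybpc2 was called under every fit that included it, and Mybpc1 and Mybph under none. Mybpc2 ranged from -8.60 to -8.50 on the log2 scale with 1 pool left out. Within run 0092 alone, with 1 C2KO fibre, its value was -11.74, beside -11.69 with run as a covariate. Since run 0092 alone held both genotypes, the fit with run as a covariate takes its genotype term from that 1 C2KO fibre. It is therefore not separate from the value within run 0092. Mybpc1 kept its direction under all 19 alternatives (-0.29 to -0.22 with 1 pool left out), with adjusted p-values from 0.00791 to 0.855, leaving aside the covariate fit. Its 2 adjusted p-values under 0.05, from DESeq2 and from the 47 fibres as units, had a fold under 1.5. With 1 pool left out Mybph ranged from -0.96 to 1.02, and it reversed without C2KO pool 2445 (-0.96). It also reversed with run as a covariate (-3.24) and within run 0092 (-3.27), which rest on the same C2KO fibre. The cause was not tested. The number of genes called, 6 in the main test, was 11 with no filter on low counts, 197 by DESeq2, 10 by limma-trend, 485 with the 47 fibres as units, 41 with run as a covariate and 2 without the WT fibre of lowest Myh4, a setting added after the data were seen, and 1 to 358 with 1 pool left out. Of the thick-filament partners DESeq2 called 2, the 47 fibres as units 4, run as a covariate 0 and the fit without that WT fibre 0, with 0 to 1 when 1 pool was left out. Of the kinases and phosphatases the 47 fibres as units called 1. With 1 pool left out the Mybpc1 share of counts differed by 62.6 to 69.2 percentage points, the family total by -2884 to -2721 CPM per kb and the ratio of Mybpc1 to Myh4 by -2.51 to -1.68 percentage points. The loss of Mybpc2 fixes the differences in share and in family total, so their stability carries no further information. No paired analysis was possible because the labels number no replicates, and numbers given in accession order tie no fibre of one genotype to one of the other. Depth limits Mybpc3 and Mybphl alone among the members.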
